A study of Drosophila melanogaster with 2 samples.

Results

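The genes kirre, rst, sns and hbs encode one family of immunoglobulin adhesion proteins, and the peaks of an anti-GFP ChIP-seq experiment were examined across these 4 genes out of 18164 annotated genes. Of the 4, only kirre held any summit of the thresholded lists. It was chosen by its measured number of summits in these lists, so that number is a description and is not tested, while rst, sns and hbs were added as its relatives. Peaks were assigned by their summit, the position the peak caller marked, from 2000 bp upstream of each gene to its annotated end. The chromatin came from whole Drosophila melanogaster prepupae, aged 1 day, of a transgenic line carrying CG11294 fused to eGFP. CG11294 is a homeobox gene. There were 2 biological replicates of this 1 group, with sonicated chromatin of 200 to 800 bp. The antibody label names CG11294 and the description anti-GFP. Because whole animals were used, a site in a few cells and a weak site in many cannot be told apart. No control library was analysed here, and nothing in the peak lists shows whether recovery needed the tagged protein.

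Proteins of this family span the membrane and bind each other between neighbouring cells. In the fly embryo, kirre (also called dumbfounded) and rst (roughest) act on muscle founder cells, and sns (sticks and stones) and hbs (hibris) on the fusion-competent myoblasts that join them. Proteins of this family also build the filtration slit of nephrocytes, where kirre and sns correspond to the mammalian NEPH1 and nephrin. In the pupal eye, rst and hbs sort the cells between the facets. These roles are background; the peak lists hold no measure of RNA or protein.

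The family divided into 1 gene with many sites and 3 genes with none. In the main list, the 3260 peaks that rest on agreement between the replicates, kirre held 16 summits. None lay in the windows of rst, sns or hbs. One or more main-list summits occurred in the windows of 15.3% of all genes. Of the 1083 genes with windows of 20 to 100 kb, the range that takes in rst, sns and hbs, 47.9% had a summit, so windows of that length with none were common. The other thresholded lists divided the family in the same way. In kirre there were 19 summits in the pooled list, 17 in replicate 1 and 11 in replicate 2, and rst, sns and hbs had 0 in each. Of all genes, 19.7% had a summit in the pooled list, 16.7% in replicate 1 and 13.7% in replicate 2.

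The 2 X-linked genes share their ground. In the Ensembl annotation of Release 6 (dm6), kirre (FBgn0028369) covers chrX:2740384-3134532 on the plus strand, and its window is 396 kb long. The gene rst (FBgn0003285) covers chrX:2950399-2973834 on the minus strand and lies wholly inside kirre. It is 1 of 22 genes nested there, of which 21 are protein-coding. The genes sns (FBgn0024189, chr2R:8798489-8856091) and hbs (FBgn0287864, chr2R:15011396-15042134) lie apart on arm 2R, on the plus strand. Their windows are 59.6 and 32.7 kb long, and that of rst is 25.4 kb. Although 7 kirre transcripts start at 6 positions, the coding sequence is confined to 5 exons in a 3.15 kb stretch at the end, so that 389 kb of the gene precede the first codon.

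The kirre sites lay in 2 separate groups. Numbered from the start of the gene, sites 1 to 4 fell in the first 49.0 kb of the window and sites 5 to 16 in the last 129 kb. Between sites 4 and 5, 218.5 kb held no main-list or pooled summit. The stretch was picked as the widest spacing between kirre main-list summits (next widest 43.7 kb). Its lack of main-list summits follows from that choice. In replicate 1 the summit of site 5 itself fell just inside this stretch, and replicate 2 had none there. The empty stretch contains 19 whole genes, among them rst and w, the white eye-colour transporter gene. It was not short of weak peaks. The ranked list behind the main list, which also keeps peaks that fail the threshold, had 207 summits there (0.947 per kb), against 1.16 per kb around sites 1 to 4 and 0.995 per kb from site 5 on. The highest signal among them was 47.9, below the 67.3 of the weakest kirre site. By the same choice all of them failed the threshold, so nothing is read from this difference. GC content was 42.0% in the empty stretch, against 41.5% before and 39.9% after it.

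**Figure D1:**
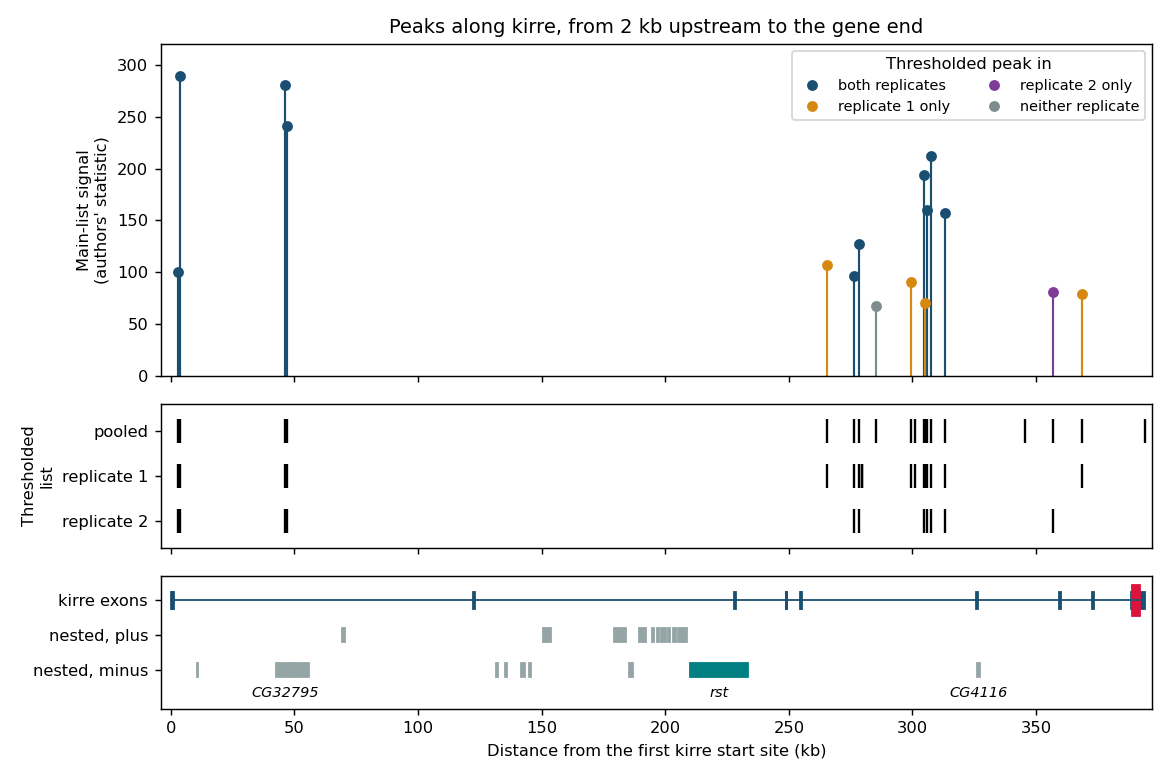
Peaks along kirre by distance in kb from its first start site. The top panel gives the main-list signal of the 16 sites, coloured by the replicates whose own thresholded list held an overlapping peak; the middle panel marks summits in the other thresholded lists; the bottom panel shows kirre exons (blue, with the coding stretch in red) and the nested genes on each strand (grey, rst in teal). Sites 1 to 4 and sites 5 to 16 are separated by 218.5 kb.

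Sites 1 to 4 lay at other genes that share the beginning of kirre. Site 2 (chrX:2744123-2744344) had the highest signal in the gene, 289, which was rank 326 of 3260. It lay 155 bp upstream of a start site of Syx4, a syntaxin gene on the opposite strand that overlaps the first kirre exons. Site 1 (signal 100) lay 292 bp upstream of another Syx4 start site. These were the 2 kirre sites within 500 bp of any start site. Sites 3 and 4 (signals 281 and 241) lay 2.58 and 1.89 kb downstream of the nearest start site of CG32795, in an intron of that nested gene. All 4 sites were in the thresholded lists of both replicates. Site 2 had a signal of 139 in replicate 1 and 152 in replicate 2, and site 3 had 147 in replicate 1 and 140 in replicate 2. These are values of separate lists with a scale that is not given. They show that both sites stood high in each replicate, at ranks 464 (site 2) and 421 (site 3) of the 3217 thresholded peaks of replicate 1 and 250 (site 2) and 301 (site 3) of the 2708 of replicate 2.

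Sites 5 to 16 lay in kirre alone, away from other genes. None of the 12 fell in the window of another gene. For sites 9 to 14 the nearest start site was that of CG4116, a small nested gene, at 14.0 to 27.5 kb. Of these, 10 sat in 1 intron of 70.6 kb (chrX:2995489-3066110), a density of 142 summits per Mb. The next intron of 33.0 kb held site 15, and one of 12.8 kb held site 16. The intron of 105 kb earlier in the gene held no main-list summit and 114 ranked ones. All these introns lie before the coding sequence. Site 16, the last, lay 20.2 kb before the coding sequence, and no kirre site fell in an exon of any gene. By place, 14 of the 16 kirre summits were intronic and 2 were at promoters, while in the whole main list introns held 47.6% and promoters 35.8%. A window inside a gene that is nearly all intron admits few other places, so the kirre shares are fixed largely by how summits were assigned and nothing is read from the contrast.

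Most kirre sites were far from any start site. The median distance to the nearest one was 18.2 kb over the 16 kirre summits, against 1.07 kb over all 3260. In kirre 10 of 16 lay more than 10 kb away, against 8.37% of all main-list summits. The density of start sites along the gene was not matched in this comparison. The start sites of kirre itself were bare. The closest main-list summit to any of them was site 15, 2.36 kb upstream of the pair of start sites at 3099550 and 3099582. Site 1 came next, 2445 bp downstream of the start at 2740805. The strongest ranked peak within 1000 bp of a kirre start site had a signal of 42.8 and an irreproducible discovery rate (IDR, the expected share of peaks at least that strong that do not repeat) of 0.245, against the list's threshold of 0.01.

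Part of the distal group was tightly packed. Sites 10, 11, 12 and 13 fell within 2.96 kb (chrX:3044913-3048024), with signals of 193, 70.3, 160 and 212. Sites 10, 12 and 13 were in both replicates' lists, and site 11, the weakest of the 4, in replicate 1 alone. Runs of 4 or more main-list summits spaced at most 2 kb apart made up 32 of the 2606 runs (1.23%), and the longest run held 8. A lone summit counts as a run of 1 in this total. The kirre run was picked as the largest of the gene, so the share does not measure how unusual it is. Over all kirre sites 7 of 16 had another summit within 1 kb (43.8%, 95% Wilson interval 23.1% to 66.8%), against 22.6% of all main-list summits. Within 2, 5 and 10 kb the kirre shares were 50%, 68.8% and 81.2%, against 34.9%, 53.7% and 67.6% of all. At these 3 distances the kirre interval took in the share of all summits. The gene was chosen for its number of summits, so nothing is read from these contrasts. Summits in a run can share chromatin fragments of up to 800 bp, so closely spaced sites are not independent measurements, and all these intervals cover counting error over peaks alone.

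The sequences around 6 sites are printed for the strongest site, the 4 sites of the packed run, and site 4, the one site outside that run with both words in its central 101 bases. Each is the reference plus strand of Release 6 from 50 bp left to 50 bp right of the summit. None overlaps an annotated exon. Capitals mark TAATTA, a homeodomain core site, and CACTG or its reverse complement CAGTG, a word chosen because it is frequent beside summits of this experiment.
Site 2 (upstream of Syx4, chrX:2744181-2744281): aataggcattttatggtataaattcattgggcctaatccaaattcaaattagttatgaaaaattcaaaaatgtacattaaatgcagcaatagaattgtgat
Site 4 (intron of CG32795, chrX:2787378-2787478): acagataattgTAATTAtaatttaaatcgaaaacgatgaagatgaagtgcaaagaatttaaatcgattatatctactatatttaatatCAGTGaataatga
Site 10 (kirre intron, chrX:3044915-3045015): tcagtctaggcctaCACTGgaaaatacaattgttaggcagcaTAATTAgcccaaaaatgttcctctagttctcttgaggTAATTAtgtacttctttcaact
Site 11 (kirre intron, chrX:3045591-3045691): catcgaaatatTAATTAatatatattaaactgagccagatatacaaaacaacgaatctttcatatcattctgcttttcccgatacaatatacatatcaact
Site 12 (kirre intron, chrX:3046116-3046216): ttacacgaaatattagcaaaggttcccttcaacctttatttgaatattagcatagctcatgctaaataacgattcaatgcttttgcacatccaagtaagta
Site 13 (kirre intron, chrX:3047879-3047979): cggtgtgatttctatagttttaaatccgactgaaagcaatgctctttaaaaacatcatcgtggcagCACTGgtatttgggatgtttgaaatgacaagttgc
Site 2, the strongest, holds neither word. Site 10 holds TAATTA at 2 positions and CACTG at 1. Site 11 has 1 TAATTA, site 13 has 1 CACTG, and site 12 has neither in these 101 bases. At site 4 a TAATTA and a CAGTG lie in sequence of 21.8% GC. Its neighbour site 3, the second strongest in kirre with a signal of 281, holds neither word in the same span.

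The kirre summits were AT-rich, as were the main-list summits in general. Within 100 bp of the summit GC content was 32.7% ± 3.94 (SD over 16 sites), against 42.3% ± 8.76 in windows centred 500 bp to the left and 44.7% ± 8.35 at the 376 ranked summits of kirre that failed the threshold. All main-list summits averaged 35.7% ± 6.98. Words were searched on both strands in the same windows. The flanks of sites 4, 11 and 12 reach into the windows of sites 3, 10 and 11, which leaves 13 clear flanks (GC 42.7% ± 8.75). TAATTA occurred at 5 of 16 kirre summits, at 1 of 16 flanks and 0 of the 13 clear ones. It was at 9.57% of the other ranked kirre summits, 16.5% of all main-list summits and 12.2% of all flanks. At the ranked summits of the relatives, which all failed the threshold, it was at 5 of 21 in hbs, 7 of 76 in sns and 1 of 26 in rst. The word is therefore not particular to the kirre sites. The shorter TAAT, which is part of TAATTA, occurred at 16 of 16 summits and at 16 of 16 flanks, with 71 and 47 occurrences, and at 92.4% of all main-list summits. CACTG occurred at 9 of 16 kirre summits, at 9 of 16 flanks and at 6 of the 13 clear ones. It stood at 52.9% of all main-list summits and 31.2% of all flanks. The longer ACAGTG, which contains CAGTG, was at 1 of 16 kirre summits, 4 of 16 flanks, 2 of the 13 clear flanks and 21.0% of all main-list summits. GAGAG was at 3 of 16 kirre summits and 24.5% of all, and TATCGATA was at 0 of 16 and 1.35% of all. AT-rich windows hold AT-rich words more often by composition, and no comparison at matched GC was made. A match is a stretch of letters and not a binding event.

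Both replicates held most of the kirre sites. Of the 16, 10 overlapped a thresholded peak in each replicate (62.5%, interval 38.6% to 81.5%), against 54.8% of all main-list peaks. All of sites 1 to 4, at Syx4 and CG32795, were among the 10. Of sites 5 to 16, in kirre alone, only sites 6, 7, 10, 12, 13 and 14 were. Sites 5, 9, 11 and 16 were in replicate 1 alone, site 15 was in replicate 2 alone, and site 8 was in neither. Every one of the 16 had a ranked peak in both replicates, but the main list rests on agreement between them, so this is no separate support. The sites in both lists had main-list signals of 96.5 to 289 with a median of 177, and the other 6 had 67.3 to 107 with a median of 80.1. The 2 ranges overlapped at sites 1, 5 and 6, with signals of 100, 107 and 96.5. At site 5 the signals were 71.1 in replicate 1 and 35.9 in replicate 2, at site 7 they were 84.2 and 42.5, and at site 13 they were 89.9 and 126. The scales of these lists are not given, so no difference between replicates is read from them.

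**Figure D2:**
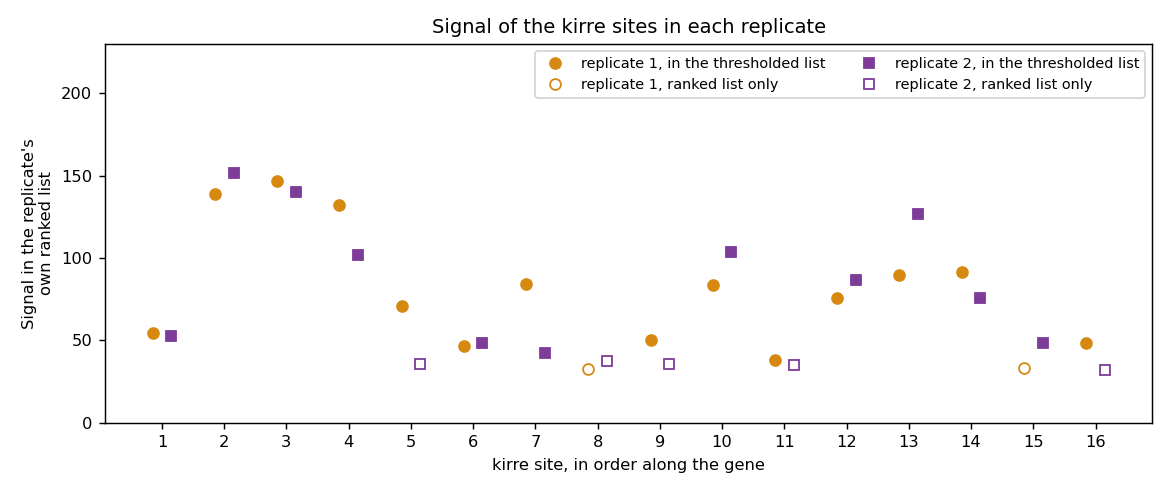
Signal of the 16 kirre sites, in order along the gene, in the ranked list of replicate 1 (circles) and of replicate 2 (squares); filled symbols were in that replicate's thresholded list. The scale of each list is its own. Sites 2, 3 and 4 are above 100 in both replicates, and open symbols lie between 32.1 and 37.3.

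In strength the kirre sites were ordinary for the list. Their median signal was 117, against 110 over all 3260 peaks, and 5 of 16 were among the 815 strongest. The ranks ran from 326 to 2819. Width split them: 7 peaks of 159 to 222 bp had signals of 157 to 289 and all 7 were in both replicates, while the 9 peaks of 340 bp had signals of 67.3 to 127 and 3 of them were in both. Peaks of 340 bp made up 64.7% of the main list. Before the gap the 4 signals had a median of 261, and the 12 after it a median of 102.

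A few kirre peaks stood at the edge of the threshold. The weakest site inside by IDR was site 8 (signal 67.3, IDR 0.00500). Just outside stood a peak at chrX:3041035-3041374 with a signal of 57.7 and an IDR of 0.0117, which was in the pooled list and in that of replicate 1. The pooled list added 2 more. The one at chrX:3085906-3086245 had a signal of 71.5 and an IDR of 0.0217, and the one at chrX:3134302-3134641 had 56.9 and 0.0218. The second lay at the very end of kirre, 398 bp upstream of a start site of N, the Notch receptor gene that follows. Replicate 1 had a further pair at chrX:3019619-3019948 and chrX:3019824-3020153, which overlap each other. Their signals in that list were 39.3 and 4.09. The peak they overlap in the ranked list behind the main list had an IDR of 0.672, so this pair was not near the edge. Every replicate 2 peak in kirre overlapped a main-list site. Outside the window, the nearest main-list summits lay 30.0 kb before its start and 28.0 kb past its end, where the summit is in an intron of N (signal 203).

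The genes without thresholded peaks were not empty in the ranked list. That list held 392 summits in the kirre window, of which 26 lay in the rst window inside it, and 76 in sns and 21 in hbs. Per kb this was 0.990 in kirre, 1.02 in rst, 1.28 in sns and 0.641 in hbs, and 0.725 over the chromosome arms. The order of the genes changed between replicates. In the ranked list of replicate 1 there were 0.540 summits per kb in kirre, 0.354 in rst, 0.940 in sns and 0.305 in hbs, and 0.488 over the arms. In that of replicate 2 there were 0.810 in kirre, 1.10 in rst, 0.721 in sns and 0.489 in hbs, and 0.668 over the arms. Only hbs lay below the arms in all 3 lists, and sns was above kirre in replicate 1 and below it in replicate 2. The share of ranked peaks that passed the IDR threshold was 4.08% in kirre (16 of 392, interval 2.53% to 6.53%), against 3.43% over the arms. It was 0 of 76 in sns, 0 of 26 in rst and 0 of 21 in hbs. Taking 3 counts of the total as the most that a count of 0 allows, these permit shares of up to 3.95% in sns, 11.5% in rst and 14.3% in hbs, and the upper Wilson bounds are 4.81%, 12.9% and 15.5%. Each of these limits, taken either way, lies above 3.43%. Taken 1 gene at a time, none of the 3 can therefore be told apart from the arms at these numbers of ranked peaks. The limits do not cover the 3 genes together, which were not examined as a set.

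The strongest weak peaks of the relatives fell well short. In sns the highest ranked signal was 44.2, at chr2R:8818298-8818637 in an intron (rank 6192 of 97080, IDR 0.0795). It appeared in both replicates' ranked lists and in neither thresholded list. In rst the highest was 31.6, at chrX:2956619-2956958 in an intron (rank 13770, IDR 0.305). In hbs it was also 31.6, at chr2R:15031560-15031899 in an intron (rank 13744, IDR 0.257), with no ranked peak in replicate 2. Near the start sites there was less. Within 1000 bp the best signal was 22.5 for rst and 31.7 for sns, and hbs had no ranked peak there. The nearest main-list summits to those start sites were 32.1 kb upstream for rst (site 5 of kirre), 38.8 kb upstream for sns and 19.1 kb upstream for hbs. Ranked summits in rst, sns and hbs had mean GC contents of 47.2% ± 8.05, 49.9% ± 6.45 and 48.7% ± 6.24 (SD, n = 26, 76 and 21), in that order, beside 44.7% ± 8.35 at the ranked kirre summits that also failed the threshold. Over the whole windows GC content was 42.3% in rst, 47.0% in sns and 40.8% in hbs.

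**Figure D3:**
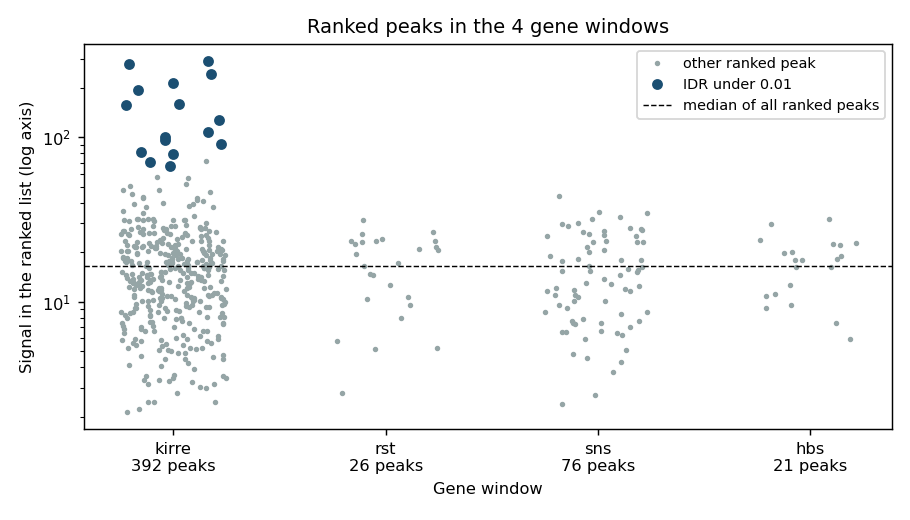
Signal of every ranked peak in the windows of kirre, rst, sns and hbs, on a log axis; horizontal position within a gene is random. Blue points had an IDR under 0.01, and the dashed line is the median of all ranked peaks. The 16 blue points are in kirre, and the peaks of the other genes reach 44.2 at most.

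By density of all summits in its window, kirre was high but not extreme among long genes. It had 40.4 main-list summits per Mb, against 24.4 over the arms. The replicates gave 42.9 in kirre against 24.0 over the arms in replicate 1, and 27.8 against 20.2 in replicate 2. Of the 16 main-list summits, 4 lay in other genes' windows and 12 did not. Of the 11 summits of replicate 2, 4 fell in the first 49.0 kb and 7 from site 5 on. Densities without the summits in other genes' windows were not ranked among long genes. Of the 91 genes with windows of at least 100 kb, 58.2% had 1 or more summits in the main list, 63.7% in the pooled list, 60.4% in replicate 1 and 56% in replicate 2. Their median main-list density was 8.04 per Mb. In this group kirre stood 15th by density and 3rd by count, after lncRNA:CR44357 with 20 summits and CG1677 with 17. Only 11 of all genes (0.0606%) had 10 or more. The 4 longer genes, CG17684, lovit, Pzl and Myo81F, had 0 each, and their windows of 398 to 1968 kb held 6 to 55 ranked summits, so little was called there at all. The 5 genes closest to kirre in density were jing, a zinc finger gene (41.1 per Mb), mgl, a lipoprotein receptor gene (41.8), Antp, the Antennapedia homeobox gene (38.1), Ptp61F, a tyrosine phosphatase gene (37.1), and fru, the fruitless transcription factor gene (45.0). Their counts were 4 to 6 summits, and they moved with the list. In replicates 1 and 2 there were 3 and 5 summits in jing, 7 and 3 in mgl, 0 and 1 in Antp, 5 and 4 in Ptp61F, and 5 and 4 in fru.

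**Figure D4:**
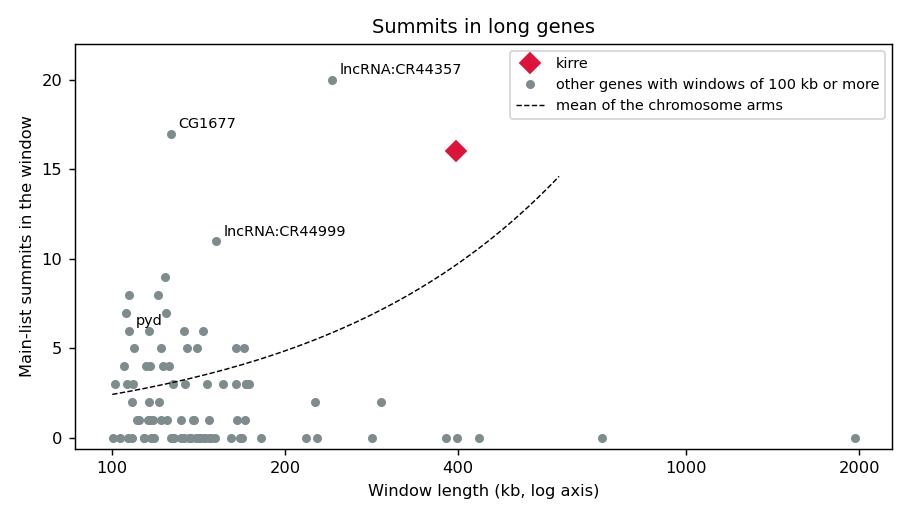
Main-list summits against window length (log axis) for the 91 genes with windows of at least 100 kb. The red diamond is kirre with 16 summits, and the dashed line is the count at the mean density of the chromosome arms, 24.4 per Mb. All but 3 of the other genes, in grey, lie at 9 summits or fewer, and the 4 genes longer than kirre are at 0.

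Summits also occurred in genes that act with the family. Of 12 listed genes of the slit diaphragm and of cell sorting in the eye, 7 had a main-list summit (58.3%, interval 32.0% to 80.7%), and of 21 genes of myoblast fusion 8 did (38.1%, interval 20.8% to 59.1%). All genes stood at 15.3%. In replicates 1 and 2 the genes with a summit numbered 5 and 6 in the first list and 9 and 7 in the second. Of all genes, 16.7% had one in replicate 1 and 13.7% in replicate 2. The windows of these lists are longer, with medians of 17.7 and 7.62 kb against 3.66 kb over all genes. Of all genes with windows of 20 to 100 kb, 47.9% had a main-list summit, but both medians lie below that range. Over their combined windows the 2 lists had 51.4 and 64.2 summits per Mb, in the same order, against 24.4 over the arms. Window length was not matched and no test was made. Neither the contrast with 15.3% nor that with the arms is read as enrichment. In the first list pyd, whose ZO-1 scaffold protein binds the tails of these receptors, had 6 summits, 3 in replicate 1 and 4 in replicate 2. Src64B, a Src kinase gene, had 5, with 4 in replicate 1 and 3 in replicate 2. The CD2AP-like adaptor gene cindr had 2, and 2 in each replicate. The strongest Src64B site (signal 289, both replicates) lay 1.26 kb downstream of its start.

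In the fusion list mbc, the gene of a Rac activator that acts in the founder cell after adhesion, had 7 summits in 21.9 kb, 5 in the list of replicate 1 and 2 in that of replicate 2. Its strongest site (signal 212, both replicates) was intronic, 1.13 kb downstream of a start site. Mef2, a muscle transcription factor gene, had 3 summits, and 4 in each replicate's list. The strongest (signal 674, rank 47, both replicates) lay 162 bp upstream of the start of Pdrg1, another gene inside its window. Rac2, a small GTPase gene, had 2, as did Swip-1, an actin-bundling protein gene, and siz, an Arf activator gene. Each of these 3 lost summits in a replicate: Rac2 had 0 in replicate 1 and 2 in replicate 2, and Swip-1 and siz each had 2 in replicate 1 and 1 in replicate 2. For siz the strongest site (signal 64.4) was in neither replicate's thresholded list.

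Of 59 other immunoglobulin adhesion genes listed, 12 had a summit (20.3%, interval 12% to 32.3%), against 15.3% of all genes. These genes are long, with a median window of 37.1 kb, and of all genes with windows of 20 to 100 kb 47.9% had a summit. Over their combined windows they had 10.1 summits per Mb, below the 24.4 over the arms. These windows include DIP-lambda (381 kb, 9 ranked summits) and dpr21 (127 kb, 0 ranked summits), where little was called at all, which lowers the density. Fas3, a fasciclin gene, had 7 summits and ed, the echinoid gene, had 5. Fas2 and sdk had 3 each, and babos, fra and tutl had 2 each. Fas3 had 4 in each replicate's list, and ed had 6 in replicate 1 and 4 in replicate 2. Fas2 had 3 and fra 3 in replicate 1, and both had 0 in replicate 2. Counts in replicates 1 and 2 were 3 and 3 for sdk, 4 and 2 for babos, and 3 and 1 for tutl. The strongest site of ed (signal 353, rank 222, both replicates) lay 720 bp upstream of its start, and that of sdk (signal 158, both replicates) 171 bp upstream. Of the 59, 7 had a summit within 1000 bp of a start site of their own, which 10.6% of all genes had and none of kirre, rst, sns and hbs did.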

How the data were processed

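The data were peak lists on dm6, a build named in the labels. For aligner, peak caller and versions the entry is: not given in the sources used here. Depth is unknown, so precision is given as 95% Wilson intervals over peaks, which cover counting error only. For each of 2 biological replicates and for 2 series analyses there was a ranked and a thresholded list, 8 in all. The signal of each peak is the authors' statistic of unstated scale, used only within a list. The −log10 values deposited by the authors include the global IDR, and all peaks of the 4 thresholded lists were found in their ranked list with an IDR under 0.01. The list named conservative was the main list. Its ranked list was recognised by the scores of the 2 inputs deposited by the authors in each ranked series list: 66.0% of them equalled a replicate's signal to 5 decimals, against 3.57% in the other.

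Peaks on arms 2L, 2R, 3L, 3R, 4 and X were kept. Genes came from Ensembl release 115 without transposable elements, and sequence from RefSeq's Release 6 genome. The summit was the file's start plus offset. Promoter summits lay within 500 bp of a start site, and overlap meant 1 bp or more. Counting was tested on simulated peaks (Python 3.11.15, pandas 2.3.3, SciPy 1.17.1). With 1 group and no control there was no comparison of conditions and no test. Members, gene lists and words were chosen with earlier results of these data known. Named genes were the members, genes nearest to their sites, the 5 closest in density, and listed genes with 2 or more summits. Outside this rule w, the genes with more summits than kirre, the 4 longer genes, DIP-lambda and dpr21 were chosen after their values were seen. Pdrg1 only locates a Mef2 summit. Limits for a count of 0 use 3 counts. Symbols Arf51F and mec2 were matched as Arf6 and Mec2 through RefSeq synonyms.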

Additional observations from a re-analysis of the deposited data

How the results depend on the processing

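The kirre count stayed between 11 and 17 when either replicate's list was used alone, and between 12 and 19 in the pooled list, with other windows, at an IDR under 0.05, with merged peaks, and when sites in other genes' windows were left out, a setting chosen after seeing the data. It was 9 at an IDR under 0.001 and 8 among the 1630 strongest main-list peaks, both of which keep fewer peaks by construction. Counts for rst, sns and hbs were 0 in all 10 alternatives, from 0 to 0 with 1 replicate alone. The gene body alone, an IDR under 0.001 and the strongest peaks by signal could only return 0 for them. Those settings therefore add no support. The other lists, the wider windows and an IDR under 0.05 could have returned more. Sites found in both replicates numbered 9 with an overlap of 50% of both peaks and 10 with summits within 150 bp. Sites with CACTG fell to 4 within 50 bp of the summit, a narrower search, and rose to 13 within 150 bp, a wider one. Sites with TAATTA stayed at 5 within 50 bp and were 6 within 150 bp. The share of genes with a summit was 7.38% without the upstream stretch, and 13.7% to 16.7% with 1 replicate alone. By density kirre ranked 12 to 19 among long genes with 1 replicate alone, 15 of 91 in the main list, and 78 of 348 when windows of at least 50 kb were admitted. Leaving out flanks that reach into another summit's window, a setting also chosen after seeing the data, left 0 of 13 kirre flanks with TAATTA, against 1 of 16. No paired analysis was possible because there was 1 group and no test. Without read depth, the absence of peaks in a gene is an absence at this threshold only.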
